A study of Rattus norvegicus with 31 samples.

Results

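The genes described here lie in the nucleus, and most encode subunits of respiratory complexes II, III, IV and V. They were chosen by symbol (Sdha to Sdhd, every Uqcr gene, Cyc1, every gene from Cox4 to Cox8 and every Atp5 gene), a rule that uses no measured value. That rule found 45 of the 11289 genes in the counts, which were 4 genes of complex II, 10 of complex III, 15 of complex IV and 16 of complex V. Those of complex IV include Cox7a2l, a factor of supercomplexes (complexes joined together), and those of complex V include its inhibitor Atp5if1. Uqcrb and Cox6b1 each occur under 2 gene identifiers, so the 45 genes carry 43 symbols. The tissue was gastrocnemius, a calf muscle made largely of fast fibres. It came from 31 Sprague Dawley rats, all female, fed chow (diet 5001) and aged 7 months per the labels, and each animal gave 1 library of 3' tags (QuantSeq, which reads the 3' end of polyadenylated RNA). The groups were Ucp1 KO rats in the cold (14 days at 4 °C, n = 8), WT rats in the cold (n = 8), Ucp1 KO rats kept at room temperature (RT) over the same 14 days (n = 7) and WT rats at RT (n = 8). Ucp1 is the uncoupling protein through which brown fat mitochondria make heat, and the labels do not say how the knockout was made. The labels name the WT animals as the controls. The comparisons ask how subunit transcripts in muscle differed with cold in rats with and without this protein.

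Complexes II, III and IV pass electrons along the inner mitochondrial membrane to oxygen, complexes III and IV pump protons as they do so, and complex V, the ATP synthase, lets the protons flow back and makes ATP. All of them other than complex II also hold subunits encoded in mitochondrial DNA, so the genes described here supply only part of each of those complexes. Several complex IV subunits exist as a form made in most tissues and a form found mainly in heart and skeletal muscle, and slow, oxidative fibres hold more mitochondria than fast fibres.

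Libraries held 6.56 to 11.9 M counts. All 45 genes passed the filter on low counts, and the lowest total of any of them over the 31 libraries was 638 counts. Muscle markers summed to between 89046 and 137137 CPM (counts per M counts) in every library, over 7 of the 8 listed genes (Myh2 is not analysed here). Counts of Ucp1 itself are not analysed here, and the genotypes are those of the labels. A pair of WT RT animals, numbers 1 and 2, stood apart on the second principal component of all genes other than the subunits (scores of -62.1 and -79.5; 14.1% of the variance), and 7 libraries spread over all groups had scores over 30 on the first (35.2% of the variance). Both sets of libraries also stood apart in many subunit genes, as described below, so values without them are given where they matter. Levels of single genes are in CPM scaled by TMM, a factor that corrects for library composition. A 3' tag count does not grow with transcript length but shifts with the annotation of the 3' end, so levels of different genes are compared only loosely.

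**Figure D1:**
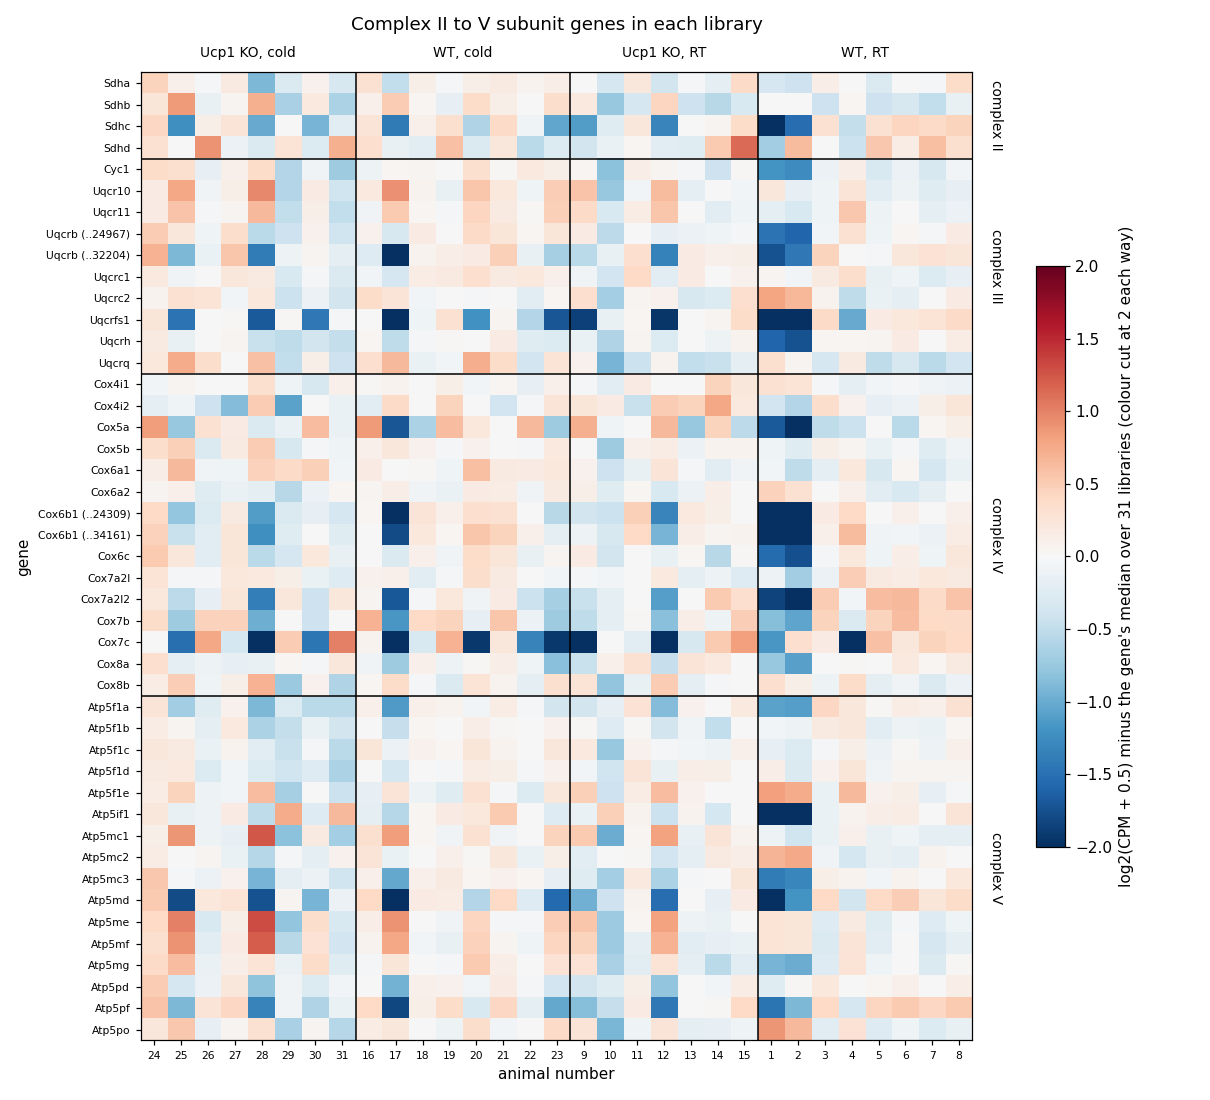
Each cell is the level of 1 gene (rows, grouped by complex) in 1 library (columns, labelled by animal number and grouped as Ucp1 KO cold, WT cold, Ucp1 KO RT and WT RT), as log2(CPM + 0.5) minus the median of that gene over the 31 libraries. Blue columns cut across groups, with WT RT animals 1 and 2 the darkest, and no group of columns differs as a block from another.

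Together the 45 genes took 4.72 ± 0.333% of all counts in KO cold rats, 4.58 ± 0.370% in WT cold rats, 4.49 ± 0.431% in KO RT rats and 4.26 ± 0.625% in WT RT rats (SD). The groups overlapped, and the differences were not tested. WT RT animals 1 and 2 held 3.32% and 3.23%, against 4.33 to 4.80% in the other 6 WT RT animals. Their values lowered the WT RT mean. Complex V genes made up the most, at 2.47 ± 0.256% in KO cold, 2.41 ± 0.127% in WT cold, 2.36 ± 0.265% in KO RT and 2.28 ± 0.192% in WT RT rats. Complex II genes took the least, at 0.163 ± 0.0147% of counts in KO cold, 0.157 ± 0.0137% in WT cold, 0.144 ± 0.0181% in KO RT and 0.140 ± 0.0200% in WT RT rats. Transcripts of mitochondrial DNA, which supply the partner subunits, took 9.43 ± 1.59% in KO cold, 10.3 ± 0.989% in WT cold, 12.4 ± 1.59% in KO RT and 12.5 ± 1.15% in WT RT rats. With their counts left out of the total, the share of the 45 genes was 5.22% in KO cold, 5.11% in WT cold, 5.12% in KO RT and 4.88% in WT RT rats. On that basis WT RT animals 1 and 2 held 3.71% and 3.65%, against 4.92 to 5.53% in the other 6 WT RT animals.

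Levels of single genes spanned a wide range. In WT RT rats the highest means were those of Cox6c, a small subunit of complex IV, at 5589 ± 2256 CPM, of Atp5f1b, the catalytic beta subunit of the ATP synthase, at 5205 ± 572 CPM, and of Atp5me, a small subunit of its membrane part, at 3410.1 ± 544 CPM. The lowest were Cox4i2, the form of complex IV subunit 4 known from lung and hypoxic cells, at 2.08 ± 0.551 CPM, the second Uqcrb identifier (ENSRNOG00000032204) at 12.3 ± 5.36 CPM and Atp5md at 26.98 ± 12.4 CPM. The first Uqcrb identifier (ENSRNOG00000024967) held 1236 ± 478 CPM. Where 2 identifiers share a symbol the copies may share reads, so the split between them is uncertain, as it is for the Cox6b1 pair (ENSRNOG00000024309 and ENSRNOG00000034161). The NCBI gene number deposited beside Atp5md is that of an ATP synthase pseudogene in the RefSeq table of assembly GRCr8. The number deposited beside Atp5f1c is that of another gene, so both names are used here as deposited.

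Cold was compared with RT in each genotype first. In KO rats 0 of 45 genes passed an adjusted p of 0.05 (edgeR's quasi-likelihood test, adjusted over all 10082 genes tested), against 1.38% of all genes, and 3 (6.67%) had an unadjusted p under 0.05, against 14.3% of all genes. In WT rats 0 of 45 passed, against 0.853% of all genes, and 5 (11.1%) had an unadjusted p under 0.05, against 14.2% of all genes. DESeq2 called 0 of 45 in KO rats (against 2.91% of all genes) and 0 of 45 in WT rats (against 2.03%). The median log2 difference between cold and RT over the 45 genes was 0.05 in KO rats, beside 0.02 over all genes, and 0.11 in WT rats, beside -0.03 over all genes. Differences were of both signs, with 27 above 0 in KO rats and 26 in WT rats. Without WT RT animals 1 and 2 the median in WT rats was -0.02, with 22 of 45 differences above 0. In KO rats the 95% interval lay wholly within a 1.5-fold difference in either direction for 25 genes and within 2-fold for 42. In WT rats it lay within 1.5-fold for 21 genes and within 2-fold for 41. Both genotypes were compared with their own RT group, so their values are independent apart from the shared estimate of spread.

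**Figure D2:**
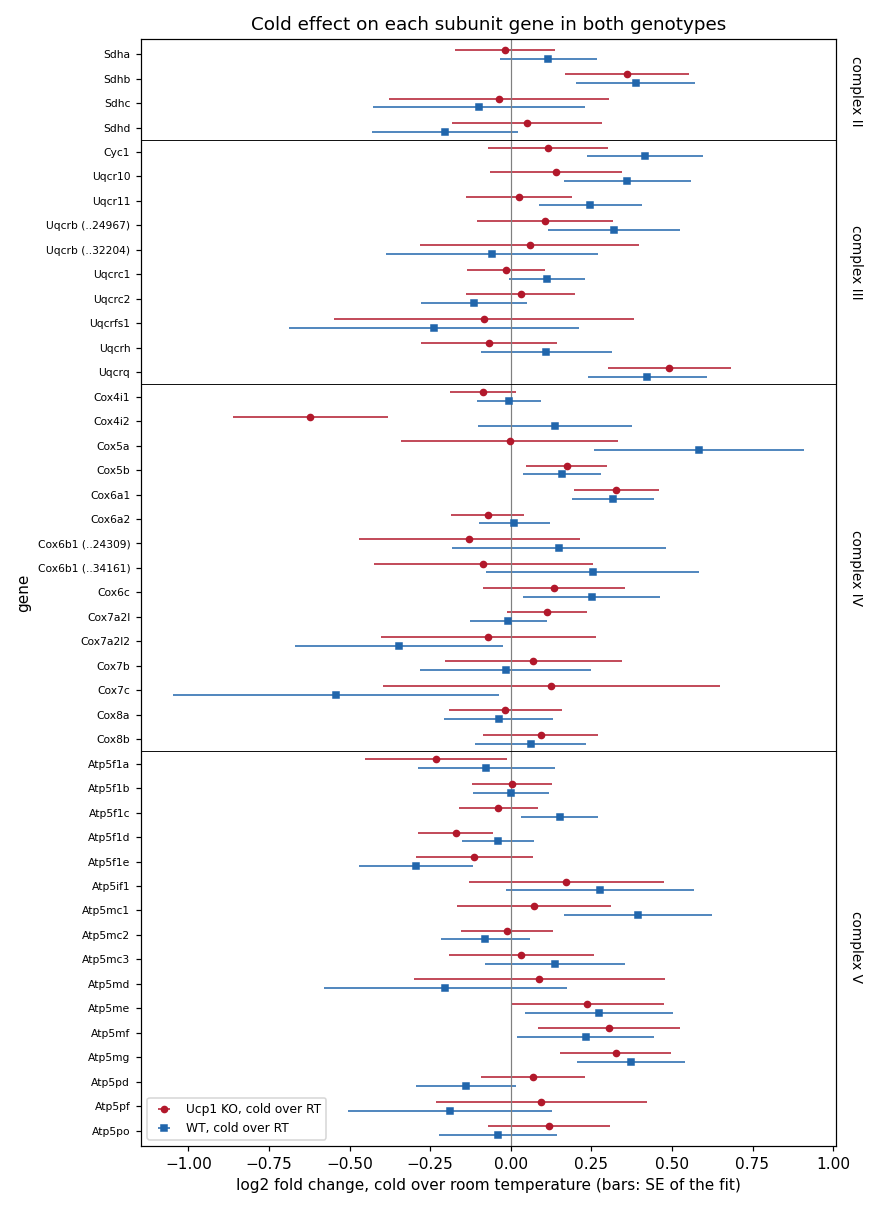
Log2 fold change of cold over RT (x axis) for each gene (y axis, grouped by complex) in Ucp1 KO rats (circles) and WT rats (squares), with bars of 1 SE. The points scatter on both sides of 0, and Uqcrq, Sdhb, Cox6a1 and Atp5mg lie to the right in both genotypes while Cox4i2 lies to the left in KO rats.

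With both genotypes averaged, the cold effect passed for 2 of 45 genes (4.44%), both higher, against 5.65% of all genes (3.67% higher), a share no larger than the background (1.98% of all genes were lower). DESeq2 called the same number, 2, against 7.04% of all genes. The median difference was 0.04, beside -0.02 for all genes. Without WT RT animals 1 and 2 the median over the 45 genes was 0.009. The 2 genes were Uqcrq, a small subunit of complex III, and Cox6a1, the ubiquitous form of complex IV subunit 6a. In the same average, 5 of 45 genes (11.1%) had an unadjusted p under 0.05, against 19.5% of all genes. The cold effects of the genotypes did not differ past the threshold for any of the 45 genes (0 passed, against 0% of all genes), and 1 gene (2.22%, against 7.31% of all genes), Cox4i2, had an unadjusted p under 0.05 (a difference of -0.76 ± 0.34, adjusted p = 0.646 in edgeR). For that difference, 15 of 45 intervals lay within 1.5-fold and 34 within 2-fold, and the other 11 reached beyond 2-fold.

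Complex II is succinate dehydrogenase, which also works in the citric acid cycle. Its iron-sulphur subunit Sdhb lay between 545 and 1548 CPM (median 930.2) in KO cold rats, 763 and 1223 CPM (median 921) in WT cold rats, 507 and 1153 CPM (median 681) in KO RT rats and 608 and 879 CPM (median 728) in WT RT rats. Cold medians were above RT medians in both genotypes, and the groups overlapped. The averaged cold effect was 0.37 ± 0.13 on the log2 scale and missed the threshold (adjusted p = 0.0942 in edgeR). In KO rats the difference was 0.36 ± 0.19 and in WT rats 0.39 ± 0.18. When the fit also held the first principal component, Sdhb passed in the average (0.29, adjusted p = 0.00852 in edgeR, against 12.6% of all genes) and in KO rats (0.34, adjusted p = 0.0459 in edgeR, against 6.69% of all genes). The flavoprotein subunit Sdha, which binds succinate, had an averaged cold effect of 0.05 ± 0.11, and the membrane anchor Sdhd one of -0.08 ± 0.16. The other anchor, Sdhc, averaged 329 ± 132 CPM in KO cold, 345 ± 137 CPM in WT cold, 337 ± 130.4 CPM in KO RT and 370.1 ± 178 CPM in WT RT rats (SD), and had 89.8 and 132 CPM in WT RT animals 1 and 2.

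Complex III passes electrons to cytochrome c. Its subunit Uqcrq (ENSRNOG00000048174), which binds next to cytochrome b, lay between 443 and 1050.4 CPM (median 700.3) in KO cold rats and between 480.4 and 1038 CPM (median 774) in WT cold rats. At RT it lay between 327 and 661 CPM (median 465) in KO rats and between 431 and 785 CPM (median 498) in WT rats. Each cold median was above the highest KO RT value, though single animals of all groups overlapped. Means were 715 ± 211 CPM in KO cold, 753 ± 195 CPM in WT cold, 509 ± 121 CPM in KO RT and 562 ± 134 CPM in WT RT rats (SD). Uqcrq rose by 0.46 ± 0.13 (log2, SE) in the average of the genotypes (adjusted p = 0.0346 in edgeR), while the difference was 0.49 ± 0.19 in KO rats (adjusted p = 0.203) and 0.42 ± 0.18 in WT rats (adjusted p = 0.286). Uqcrq missed the threshold in 12 of the 31 fits that left out 1 library each, with adjusted p up to 0.0599 in edgeR. The libraries left out in those fits were KO cold 25, WT cold 17 and 20, KO RT 10, 11, 13 and 14, and WT RT 3, 5, 6, 7 and 8.

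The promoter of Uqcrq, the complex III gene that passed, is shown as the 250 bases before its start in RefSeq (GRCr8, chr10:38089979-38090228, minus strand, 5′ to 3′), with capitals for a match to the GABP/ETS letters CCGGAAG and to the E-box letters CANNTG.
Uqcrq: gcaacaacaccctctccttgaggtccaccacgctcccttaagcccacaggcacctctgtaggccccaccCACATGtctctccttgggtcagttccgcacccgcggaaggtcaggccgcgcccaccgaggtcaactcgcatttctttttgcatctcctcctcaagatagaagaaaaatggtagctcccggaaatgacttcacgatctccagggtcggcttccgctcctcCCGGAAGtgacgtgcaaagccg

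Of the other complex III genes, Cyc1, the cytochrome c1 that hands electrons to cytochrome c, averaged 518 ± 139.9 CPM in KO cold, 548 ± 51.1 CPM in WT cold, 478 ± 100.1 CPM in KO RT and 411 ± 126 CPM in WT RT rats. Its cold effect was 0.12 ± 0.19 in KO rats and 0.42 ± 0.18 in WT rats, and 0.21 ± 0.16 in WT rats without animals 1 and 2. Uqcr10, another small subunit, had an averaged cold effect of 0.25 ± 0.14 (adjusted p = 0.345 in edgeR). Uqcrc1 and Uqcrc2 are the core proteins on the matrix side of the complex. For Uqcrc1 the cold effect was -0.02 ± 0.12 in KO rats and 0.11 ± 0.12 in WT rats, with 414 to 716 CPM over all 31 libraries. For Uqcrc2 it was 0.03 ± 0.17 in KO rats and -0.11 ± 0.16 in WT rats, and 0.14 ± 0.15 in WT rats without animals 1 and 2. Uqcrfs1, the Rieske iron-sulphur protein that moves electrons to Cyc1, was among the least steady, with 198 to 753 CPM in KO cold, 116 to 780.2 CPM in WT cold, 165 to 815 CPM in KO RT and 65.3 to 827 CPM in WT RT rats. Its cold effect was -0.08 ± 0.46 in KO rats and -0.24 ± 0.45 in WT rats, and -0.60 ± 0.40 in WT rats without animals 1 and 2.

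Complex IV is cytochrome c oxidase. Cox6a1 (ENSRNOG00000001170) lay between 101 and 169 CPM (median 129) in KO cold rats and between 101 and 163 CPM (median 119.7) in WT cold rats. At RT it lay between 80.0 and 128 CPM (median 102) in KO rats and between 75.2 and 123 CPM (median 96.1) in WT rats. The groups overlapped, and each cold median was above both RT medians. Cox6a1 rose by 0.32 ± 0.09 in the average of the genotypes (adjusted p = 0.0300 in edgeR). The difference was 0.33 ± 0.13 in KO rats (adjusted p = 0.221) and 0.32 ± 0.13 in WT rats (adjusted p = 0.244). Without KO cold 30, KO RT 10 or KO RT 14 it missed the threshold, with adjusted p up to 0.0582 in edgeR. Without either KO RT 10 or KO RT 14, 0 of the 45 genes passed in the average, and without KO RT 12, 4 did.

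Cox4i2 had the smallest p of all 45 genes for cold in KO rats. It lay between 0.760 and 3.27 CPM (median 1.86) in KO cold rats, 1.52 and 3.08 CPM (median 2.13) in WT cold rats, 1.44 and 4.00 CPM (median 2.63) in KO RT rats and 1.25 and 2.87 CPM (median 2.11) in WT RT rats. All groups overlapped at this low level. Its difference with cold was -0.62 ± 0.24 in KO rats (adjusted p = 0.202 in edgeR) and 0.14 ± 0.24 in WT rats (adjusted p = 0.813 in edgeR), or -0.02 ± 0.25 in WT rats without animals 1 and 2 at RT. Cox4i1, the form of subunit 4 used in most tissues, was the steadiest of the 45 genes, with an SD within groups of 0.171 on the log2 scale. Its cold effect was -0.09 ± 0.10 in KO rats and -0.01 ± 0.10 in WT rats. Cox5a, a nuclear subunit on the matrix side, averaged 843 ± 297 CPM in KO cold, 815 ± 402 CPM in WT cold, 844 ± 316 CPM in KO RT and 544 ± 251 CPM in WT RT rats. Its difference of 0.58 ± 0.33 in WT rats was 0.30 ± 0.30 without WT RT animals 1 and 2. Cox5b, a zinc-binding subunit, had an averaged cold effect of 0.17 ± 0.09 (adjusted p = 0.300 in edgeR). Cox7c, a single-helix subunit, had the widest spread of the 45 genes, from 205 to 2464 CPM in KO cold rats, 214 to 1986 CPM in WT cold rats, 238 to 2176 CPM in KO RT rats and 241 to 1851 CPM in WT RT rats. Its cold effect was 0.13 ± 0.52 in KO rats and -0.54 ± 0.51 in WT rats.

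Complex V makes ATP from the proton gradient. Atp5mg, a subunit of its membrane part, had the smallest p of the 16 genes in the average, at 0.35 ± 0.12, and missed the threshold (adjusted p = 0.0828 in edgeR). It averaged 2715 ± 575 CPM in KO cold, 2657 ± 385 CPM in WT cold, 2167 ± 545 CPM in KO RT and 2051 ± 582 CPM in WT RT rats, and its difference in WT rats was 0.37 ± 0.17 with all animals and 0.20 ± 0.15 without WT RT animals 1 and 2. Atp5mf, of the same membrane part, had an averaged cold effect of 0.27 ± 0.15. For Atp5f1b, the catalytic subunit, the cold effect was 0.00 ± 0.12 in KO rats and 0.00 ± 0.12 in WT rats. For Atp5f1a, the alpha subunit beside it, it was -0.23 ± 0.22 in KO rats and -0.08 ± 0.21 in WT rats, and -0.30 ± 0.19 in WT rats without animals 1 and 2 at RT. For Atp5f1e, the epsilon subunit of the central stalk, the average was -0.20 ± 0.13 (adjusted p = 0.399 in edgeR), and when the fit also held the first principal component it passed as lower in the average (-0.26, adjusted p = 0.0128 in edgeR) and in WT rats (-0.40, adjusted p = 0.0203 in edgeR, against 3.75% of all genes). WT RT animals 1 and 2 had 3089 and 2916 CPM of Atp5f1e, against 1563 to 2725 CPM in the other WT RT rats. In the fit without the component, the Atp5f1e difference in WT rats was -0.30 ± 0.18 with those animals and -0.09 ± 0.17 without them. The Atp5f1e average without them was -0.10 ± 0.12. Atp5if1, the inhibitor that keeps the enzyme from running backwards, averaged 233 ± 73.1 CPM in KO cold, 212 ± 48.3 CPM in WT cold, 206 ± 44.9 CPM in KO RT and 175 ± 88.5 CPM in WT RT rats. Its difference in WT rats was 0.28 ± 0.29, and -0.06 ± 0.18 without WT RT animals 1 and 2.

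**Figure D3:**
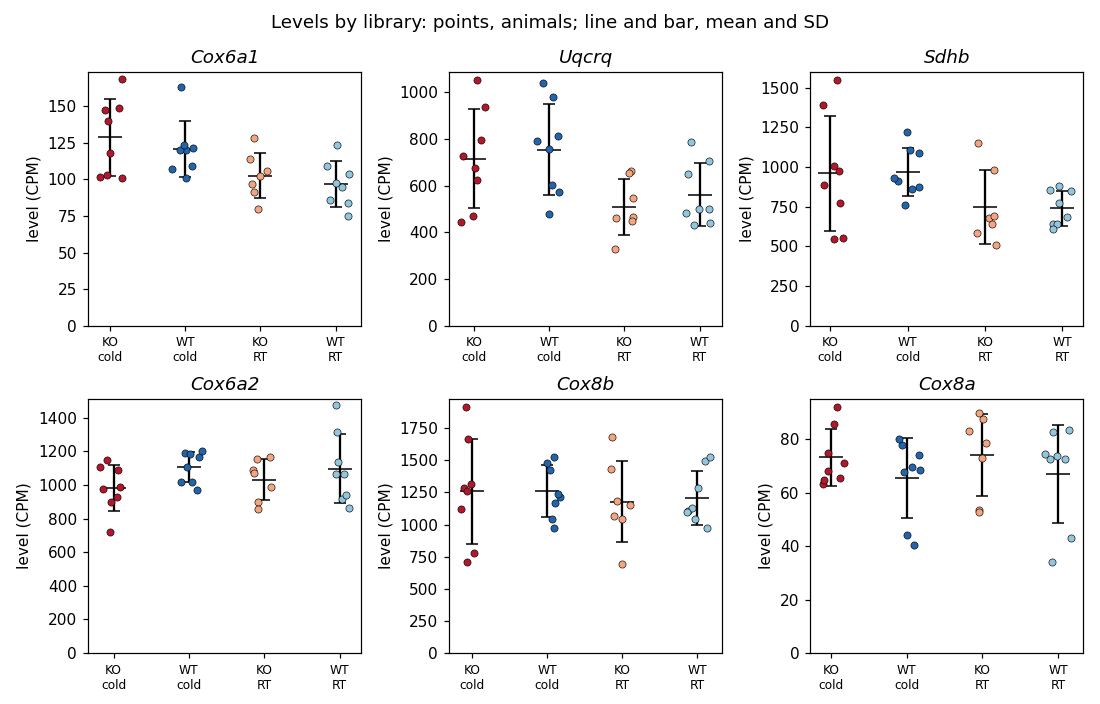
Levels in CPM (y axis, from 0) of Cox6a1, Uqcrq, Sdhb, Cox6a2, Cox8b and Cox8a in every library, with points for animals and a line and bar for the mean and SD of Ucp1 KO cold (n = 8), WT cold (n = 8), Ucp1 KO RT (n = 7) and WT RT (n = 8). For Cox6a1, Uqcrq and Sdhb the cold means lie above the RT means and the points overlap, and for Cox6a2, Cox8b and Cox8a the means lie close together.

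Other measures moved with cold beside these genes, and their part in the rises of Uqcrq and Cox6a1 was not tested. The counts of markers that follow are from the average of the genotypes, where 3.67% of all genes were higher and 1.98% lower. Of 10 slow fibre markers, 8 rose in the average and 0 fell (median log2 change 0.84), such as Myh7, the slow myosin heavy chain (0.88 ± 0.11), and Atp2a2, the slow calcium pump (0.97 ± 0.13). Their summed level was 15848 to 28589.5 CPM in KO cold, 17205 to 25791 in WT cold, 8424 to 14134 in KO RT and 5573 to 15729.5 in WT RT rats, so the cold and RT ranges of this sum did not overlap. White adipocyte markers (2 of 8 higher) summed to 1318 to 2309.6 CPM in KO cold, 896 to 1327 in WT cold, 908 to 1325 in KO RT and 420.4 to 1201 in WT RT rats. Erythrocyte markers (3 of 4 higher) summed to 512 to 1890.5 CPM in KO cold, 462 to 1013 in WT cold, 291 to 1056 in KO RT and 305 to 646 in WT RT rats. Endothelial markers (1 of 5 lower, Cdh5 at -0.59 ± 0.12) summed to 88.5 to 138 CPM in KO cold, 81.3 to 117 in WT cold, 96.9 to 159 in KO RT and 102 to 205 in WT RT rats. Immune markers (1 of 5 tested higher, the macrophage receptor Cd163 at 1.002 ± 0.15) summed to 163 to 282 CPM in KO cold, 130.4 to 286 in WT cold, 143 to 216 in KO RT and 53.0 to 200.4 in WT RT rats. Both heart markers in the counts rose (Tnnt2 by 1.78 ± 0.35 and Myh6 by 0.71 ± 0.20), with a sum of 5.31 to 17.6 CPM in KO cold, 6.404 to 25.8 in WT cold, 3.01 to 11.7 in KO RT and 2.39 to 7.05 in WT RT rats. Of 7 skeletal muscle markers 1 was higher, and of 4 fibroblast markers 0 passed. The brown adipocyte list was in the counts with 1 of 4 genes, at 1.53 to 5.18 CPM, and Cidea, Dio2 and Elovl3 are not analysed here. In whole muscle, fewer cells of a type and less RNA per cell cannot be told apart.

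Isoforms were compared as ratios within each library, so that scaling between libraries drops out. Cox6a2 and Cox8b are the forms found mainly in heart and skeletal muscle, and Cox6a1 and Cox8a those of most other tissues. In these muscles Cox6a2 made up 88.3 ± 2.66% of the Cox6a counts in KO cold, 90.2 ± 1.08% in WT cold, 90.9 ± 1.85% in KO RT and 91.7 ± 1.78% in WT RT rats (SD). Cox8b made up 93.9 ± 2.46% of the Cox8 counts in KO cold, 94.9 ± 1.54% in WT cold, 93.6 ± 2.51% in KO RT and 94.5 ± 1.89% in WT RT rats. The muscle form was thus the more abundant in both pairs, in every library.

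The ratio of Cox6a2 to Cox6a1 was 5.15 to 10.5 (median 7.83) in KO cold rats, 7.28 to 10.9 (median 9.49) in WT cold rats, 6.72 to 12.8 (median 10.5) in KO RT rats and 7.91 to 17.5 (median 11.1) in WT RT rats. KO cold rats had the lowest ratios and all groups overlapped. Cold minus RT was -0.39 ± 0.17 on the log2 scale in KO rats (SE; exact permutation p = 0.0389, adjusted p = 0.342 over 20 tests, two-sided) and -0.29 ± 0.14 in WT rats (exact permutation p = 0.0513, adjusted p = 0.342). Without WT RT animals 1 and 2 the difference in WT rats was -0.13 ± 0.10 (exact permutation p = 0.220, adjusted p = 0.440). Between genotypes the ratio differed by -0.26 ± 0.14 in the cold (exact permutation p = 0.0866, adjusted p = 0.391) and by -0.16 ± 0.17 at RT (exact permutation p = 0.360, adjusted p = 0.888). In none of the 5 pairs and 4 comparisons did the adjusted p pass. Cox6a2 alone averaged 982 ± 137 CPM in KO cold, 1106 ± 91.9 CPM in WT cold, 1032 ± 121 CPM in KO RT and 1097 ± 208 CPM in WT RT rats, and its cold effect was -0.07 ± 0.11 in KO rats and 0.01 ± 0.11 in WT rats, and 0.15 ± 0.10 in WT rats without animals 1 and 2 at RT. Cox6a2 passed in no comparison.

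The ratio of Cox8b to Cox8a averaged 17.8 ± 7.21 in KO cold, 20.9 ± 9.10 in WT cold, 17.3 ± 8.59 in KO RT and 20.3 ± 10.1 in WT RT rats. Cold minus RT was 0.07 ± 0.33 in KO rats (exact permutation p = 0.838) and 0.08 ± 0.30 in WT rats (exact permutation p = 0.743). Without WT RT animals 1 and 2 it was 0.40 ± 0.22 in WT rats (exact permutation p = 0.111, adjusted p = 0.278). Between genotypes at RT the ratio differed by -0.23 ± 0.34 with them (exact permutation p = 0.493) and by 0.09 ± 0.27 without them (exact permutation p = 0.769). Cox8b averaged 1257 ± 405 CPM in KO cold, 1259 ± 201 in WT cold, 1179 ± 313 in KO RT and 1206 ± 208 in WT RT rats. Cox8a averaged 73.2 ± 10.5 CPM in KO cold, 65.4 ± 14.97 in WT cold, 74.1 ± 15.3 in KO RT and 67.2 ± 18.3 in WT RT rats. Neither isoform passed in any comparison. Cox4i2 stood at 0.342 ± 0.131% of the Cox4i counts in KO cold, 0.437 ± 0.0902% in WT cold, 0.505 ± 0.131% in KO RT and 0.411 ± 0.137% in WT RT rats, and the log2 ratio of Cox4i2 to Cox4i1 in KO rats had a cold minus RT difference of -0.60 ± 0.27 (exact permutation p = 0.0488, adjusted p = 0.342). This pair and the Cox6a pair gave the only unadjusted values under 0.05 among the 20 tests.

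The genes Atp5mc1, Atp5mc2 and Atp5mc3 encode the same mature c subunit of the rotor ring of the ATP synthase and differ in their import sequences. Atp5mc3 had the highest mean in every group, at 2857 ± 801 CPM in KO cold, 2972 ± 629 CPM in WT cold, 2793 ± 678 CPM in KO RT and 2703 ± 949 CPM in WT RT rats. Atp5mc1 had 0.632 ± 0.556 counts for each count of Atp5mc3 in KO cold, 0.605 ± 0.401 in WT cold, 0.566 ± 0.302 in KO RT and 0.523 ± 0.266 in WT RT rats. In 4 libraries, all among the 7 with high scores on the first component, Atp5mc1 held more counts than Atp5mc3 (ratios of 1.94 in KO cold 28, 1.57 in WT cold 17, 1.18 in KO RT 12 and 1.06 in WT RT 1). The ratio of Atp5mc2 to Atp5mc3 was 0.125 ± 0.0245 in KO cold, 0.132 ± 0.0365 in WT cold, 0.128 ± 0.0295 in KO RT and 0.201 ± 0.180 in WT RT rats, and 0.103 ± 0.0121 in the 6 WT RT rats other than animals 1 and 2. The sign of the cold difference in WT rats for this ratio depended on those animals, at -0.24 ± 0.39 with them (exact permutation p = 0.506, adjusted p = 0.888) and 0.32 ± 0.14 without them (exact permutation p = 0.0213, adjusted p = 0.195).

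**Figure D4:**
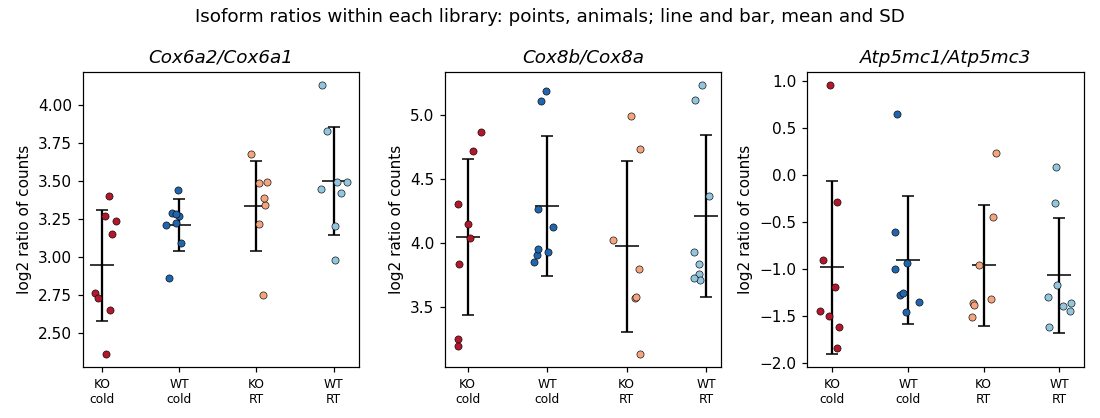
Log2 ratio of counts of 2 isoforms in each library (y axis) for Cox6a2 over Cox6a1, Cox8b over Cox8a and Atp5mc1 over Atp5mc3, with points for animals and a line and bar for the mean and SD of Ucp1 KO cold, WT cold, Ucp1 KO RT and WT RT. The Cox6a ratio is lowest in KO cold rats with overlap between all groups, and the other ratios show no order of groups beyond their spread.

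Promoters of both muscle forms and of Cox8a are shown, as the 250 bases before each start in RefSeq (GRCr8, minus strand, 5′ to 3′), because the letters found there differ between Cox8b and Cox8a. That of Cox6a1 is not analysed here. The windows are chr1:192219717-192219966 for Cox6a2, chr1:205408274-205408523 for Cox8b and chr1:213833624-213833873 for Cox8a. Capitals mark matches on either strand to the MEF2 letters (CTA and TAG with TTTA or AAAA between them), CCGGAAG (GABP/ETS) and CANNTG (E-box).
Cox6a2: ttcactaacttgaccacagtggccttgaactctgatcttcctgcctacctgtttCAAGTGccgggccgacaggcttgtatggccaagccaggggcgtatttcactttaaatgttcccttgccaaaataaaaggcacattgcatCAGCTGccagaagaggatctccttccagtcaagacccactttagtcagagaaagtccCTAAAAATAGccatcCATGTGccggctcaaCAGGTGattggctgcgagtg
Cox8b: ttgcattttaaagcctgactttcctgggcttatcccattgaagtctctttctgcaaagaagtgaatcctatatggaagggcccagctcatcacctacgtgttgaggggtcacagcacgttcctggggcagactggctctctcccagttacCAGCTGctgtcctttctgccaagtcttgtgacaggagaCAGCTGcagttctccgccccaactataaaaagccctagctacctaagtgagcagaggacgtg
Cox8a: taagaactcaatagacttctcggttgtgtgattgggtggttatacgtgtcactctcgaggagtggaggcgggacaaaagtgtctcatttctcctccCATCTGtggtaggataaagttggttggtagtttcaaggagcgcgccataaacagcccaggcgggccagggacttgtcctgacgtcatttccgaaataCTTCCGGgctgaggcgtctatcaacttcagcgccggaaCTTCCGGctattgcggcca

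The window of Cox6a2 held the MEF2 letters 50 bases before the start and 4 E-boxes. That of Cox8b held 2 E-boxes, and that of Cox8a held 2 GABP/ETS matches, 57 and 19 bases before the start, and 1 E-box. Uqcrq had its GABP/ETS match 22 bases before the start. Of the 45 genes, 35 matched a RefSeq promoter by symbol. GABP/ETS letters were in 11 of the 35 windows (31.4%, against 7.27% of all 33469 windows), and NRF1 letters (GCGCA and GCGC with 1 base between them) in 5 (14.3%, against 3.75%): Atp5mc2, Atp5me, Atp5po, Sdha and Uqcrc1. ERR letters (TCAAGGTCA) were in that of Atp5mc3 alone (2.86%, against 0.388%) and MEF2 letters in that of Cox6a2 alone (2.86%, against 0.239%). E-box letters were in 23 (65.7%, against 65.5%). These matches describe letters in the window and no binding was measured.

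Genotype was compared at each temperature. In the cold, KO over WT passed for 0 of 45 genes, against 0.00992% of all genes, and 0 had an unadjusted p under 0.05, against 6.28% of all genes. At RT 0 of 45 passed, against 0% of all genes, and 0 had an unadjusted p under 0.05, against 7.06% of all genes. DESeq2 called 0 of 45 in the cold (against 0.0709% of all genes) and 0 of 45 at RT (against 0.00886%). The median log2 difference was -0.02 in the cold, beside 0.04 over all genes, and 0.01 at RT, beside -0.03 over all genes. In the cold 15 of 45 differences were above 0, and at RT 23 of 45. Without WT RT animals 1 and 2 the median at RT was -0.05, with 19 of 45 above 0. In the cold the 95% interval lay within 1.5-fold for 30 genes and within 2-fold for 43, and at RT within 1.5-fold for 28 and within 2-fold for 42. The smallest adjusted p was 0.892 in the cold, for Atp5f1c (-0.19 ± 0.12), and 0.700 at RT, for Cox5a (0.63 ± 0.34). Without WT RT animals 1 and 2, Cox5a at RT differed by 0.35 ± 0.31.

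Libraries also varied within groups. The SD within groups on the log2 scale had a median of 0.405 over the 45 genes, beside 0.420 over all genes, and ran from 0.171 for Cox4i1 to 1.20 for Cox7c. It was over 0.5 for 12 genes and under 0.25 for 9. In WT RT animals 1 and 2 together, 17 of 45 genes (37.8%) were more than 2-fold lower than in the other 6 WT RT animals, against 13.1% of all genes, and 0 were more than 2-fold higher, against 7.52% of all genes. Both animals lay below all 6 others in 22 genes (48.9%, against 21.7% of all genes) and above all of them in 7 (15.6%, against 24.3%). Uqcrfs1 had 65.3 and 101 CPM in animals 1 and 2 against 315 to 827 CPM in the others, Atp5if1 33.5 and 35.5 CPM against 190 to 251 CPM, and Cox6c 2218 and 1906 CPM against 6047 to 7522 CPM. On the other side, Atp5po, a stalk subunit that links the motor to the membrane part, had 2136 and 1814 CPM against 961 to 1411 CPM. Cox4i1, Cox6a2 and Uqcrc2 were also above the range of the other 6 in both animals. In the same animals slow fibre markers summed to 5573 and 6068 CPM against 8452 to 15729.5, and white adipocyte markers to 420.4 and 428 against 907 to 1201. Immune markers (69.2 and 53.0 CPM against 149 to 200.4) and fibroblast markers (267 and 196 CPM against 567.7 to 964) were also lower, and endothelial markers were higher (205 and 188 CPM against 102 to 134). Their part in the subunit values was not tested.

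The 6 further libraries with high first component scores (KO cold 25 and 28, WT cold 17 and 23, KO RT 9 and 12) showed a pattern of their own. Relative to the rest of their groups 8 of 45 genes (17.8%) were more than 2-fold lower, against 10.8% of all genes, and 0 more than 2-fold higher, against 1.42%. Cox7c differed by -2.13 on the log2 scale, Uqcrfs1 by -1.73, Atp5md by -1.64 and Atp5pf by -1.31. Higher values were found for Atp5me (0.91), Atp5mc1 (0.89), Atp5mf (0.84) and Uqcr10 (0.78). At a limit of 0.5 in both sets of libraries, 12 of the 45 genes were low in both and 2, Uqcrq and Atp5f1e, high in both. The same overlap was not counted over all genes, so it is not shown to be particular to the subunits. In WT RT animals 1 and 2, 21 of the 45 genes were lower by that limit (against 27.96% of all genes) and 5 higher (against 24.1%). In the 6 further libraries 14 were lower (against 24.6% of all genes) and 9 higher (against 18.4%). The median gene held 6.99 to 8.08 CPM in the 7 libraries with high scores, and 7.92 to 11.5 in the rest. All of these sets were drawn from levels of genes other than the 45, and no label names a batch, so what sets them apart cannot be read from the labels.

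**Figure D5:**
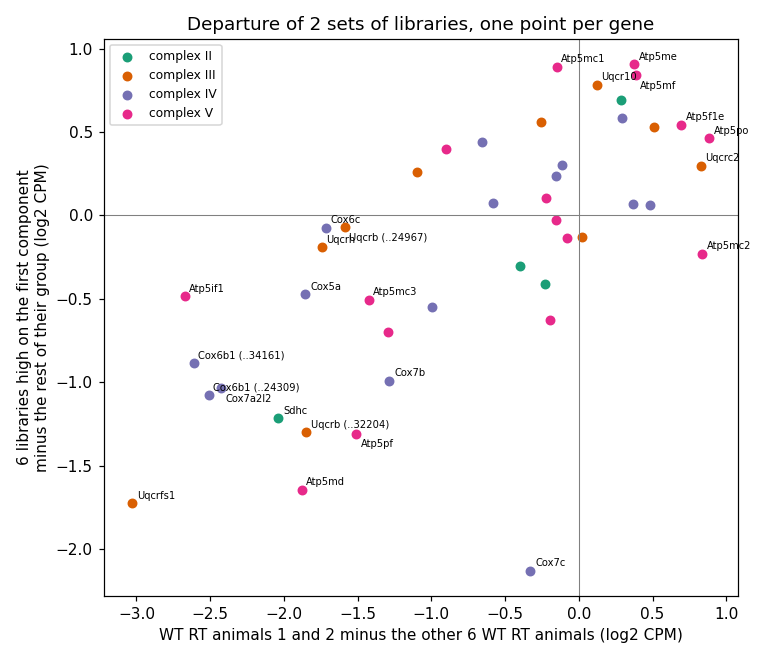
Each point is 1 of the 45 genes, coloured by complex, placed by its mean log2 CPM in WT RT animals 1 and 2 minus that in the other 6 WT RT animals (x axis) and in the 6 libraries high on the first component minus the rest of their groups (y axis). Uqcrfs1, the Cox6b1 pair, Sdhc and Atp5md lie low on both axes, Cox7c on the y axis, and Atp5po, Uqcrc2 and Atp5mc2 to the right.

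Leaving WT RT animals 1 and 2 out turned the sign of the cold difference in WT rats for 12 of 45 genes, of the genotype difference at RT for 16 and of the difference between the cold effects for 16, none of which had passed. In the average over genotypes the sign turned for 12, and the same 2 genes, Cox6a1 and Uqcrq, passed, against 7.2% of all genes. Cox6a1 then rose by 0.31 ± 0.09 (adjusted p = 0.0318 in edgeR) and Uqcrq by 0.54 ± 0.13 (adjusted p = 0.0120 in edgeR). Without the 7 libraries of high score both passed as well, Cox6a1 at an adjusted p of 0.0359 and Uqcrq at 0.0368 in edgeR, against 5.28% of all genes. With both sets left out Sdhb passed too (0.36 ± 0.10, adjusted p = 0.0300 in edgeR), against 8.13% of all genes.

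Genes that work with these subunits were followed in the same averaged comparison. Of 34 complex I subunit genes tested, 0 passed (6 had an unadjusted p under 0.05 in edgeR, against 19.5% of all genes; median 0.01). Of 33 assembly factors and partners tested (of 40 listed), 1 rose and 0 fell (median -0.00), against 3.67% of all genes higher and 1.98% lower. The gene was Higd1a, a factor that binds complexes III and IV (0.56 ± 0.11, adjusted p = 0.00222 in edgeR), at 0.56 ± 0.16 in KO rats and 0.55 ± 0.16 in WT rats. Of 6 subunits of complexes III to V encoded in mitochondrial DNA, 0 rose and 1 fell. Their median was -0.34, beside -0.02 over all genes. The counts that fell were those assigned to Mt-atp8 of the ATP synthase (-0.90 ± 0.17, adjusted p = 0.00117 in edgeR). Mt-atp6 of the same enzyme did not pass (-0.19 ± 0.11, adjusted p = 0.353 in edgeR). Group means were 41235 to 51718 CPM for Mt-atp6 and 760 to 2009 CPM for Mt-atp8. How tags were assigned between these genes is not stated, so the fall of a separate Mt-atp8 transcript is not shown. In KO rats alone the counts assigned to Mt-atp8 fell by 1.402 on the log2 scale (adjusted p = 0.00195 in edgeR). In WT rats their difference was -0.40 ± 0.24 (adjusted p = 0.434 in edgeR). Mt-cyb of complex III missed the threshold (-0.43 ± 0.13, adjusted p = 0.0559 in edgeR), as did Mt-co2 of complex IV (-0.35 ± 0.12, adjusted p = 0.0770). The median over 12 regulators of respiratory genes was -0.25, beside -0.02 over all genes. Against 3.67% of all genes higher and 1.98% lower, 1 of the 12 rose and 0 fell. That was Esrrg, a nuclear receptor of oxidative muscle (0.79 ± 0.14, adjusted p = 0.000866 in edgeR), which rose in WT rats (1.14 ± 0.20, adjusted p = 0.00576 in edgeR) and had a difference of 0.44 ± 0.21 in KO rats (adjusted p = 0.319 in edgeR). In edgeR's test of the difference between the genotypes' cold effects 0 genes passed, so neither Mt-atp8 nor Esrrg is shown to differ between them. Ppargc1a, the coactivator known for switching on mitochondrial genes, had a difference of -0.31 ± 0.22 (adjusted p = 0.477 in edgeR).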

How the data were processed

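The deposited table holds raw counts of 3' tags per gene that the authors made for 31 libraries, and the other deposited table a normalized signal, in which the authors scaled those counts by size factors. That signal matched the counts after 1 scaling per library (largest relative difference 5.23e-10), so every value rests on the counts. Per the submitters' processing notes the tools and build were DESeq2 1.22.2 and Rnor 6.0; aligner, counter and strandedness are not stated there, so overlapping genes on opposite strands may share reads. The rule for the 45 genes uses no measured value, but that rule and the lists were set with earlier results of these data known.

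Counts were fitted with edgeR 4.0.16 in R 4.3.3 (TMM, filterByExpr with minimum count 10 and total 15, 10082 genes kept, 1 mean per group, 31 libraries, 27 residual degrees of freedom). P-values are two-sided and adjusted by Benjamini-Hochberg over all genes tested within a comparison, with a threshold of 0.05; SE is the absolute log2 difference divided by the root of F, and intervals are 95%. The labels do not say whether animals were littermates or shared a batch. Each animal was taken as an independent unit, which could not be checked, and p-values rest on the spread between these animals. Depth was 6.56 to 11.9 M counts per library (means 10.0 M in KO cold, 9.07 M in WT cold, 9.26 M in KO RT and 8.83 M in WT RT), and all 105 pairs of libraries within groups differed beyond counting noise (chi-square of at least 5.62 per degree of freedom). Isoform ratios used a pseudocount of 0.5 and exact permutation tests in scipy 1.17.1, adjusted over 20 tests. Named in full were all isoforms of a pair, genes past the threshold, the 3 of smallest p in each complex and comparison, and the 3 highest and lowest levels; others named for their spread between libraries were chosen after their values were seen. Alternatives were other scalings, no filter, DESeq2 1.42.0, fewer libraries and a principal component as covariate. Sequences came from RefSeq (GRCr8), which differs from the build of the counts, so coordinates are given for the promoter windows alone.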

Additional observations from a re-analysis of the deposited data

Results flagged for a closer look

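Of 180 combinations of gene and group examined, 7 held 1 library far from the others by Dixon's test. Chance flags about 1 in 20 groups, so the number flagged was no larger than chance alone gives. WT RT animal 4 had 1367.7 CPM of Uqcr11, a small complex III subunit, against 759.6 to 936 CPM in the other 7. KO RT animal 10 had 586 CPM of Cox5b, against 879 to 1062 CPM in the other 6, and 511 CPM of Atp5f1c, against 811 to 994 CPM. WT cold animal 20 had 163 CPM of Cox6a1, against 101 to 123 CPM, and Cox6a1 passed in the average without that animal. WT cold animal 17, which was also high on the first component, had 3795 CPM of Atp5f1b, against 5265 to 5769.5 CPM, 325 CPM of Atp5f1d, against 407 to 459.6 CPM, and 1506 CPM of Atp5mc3, against 2729 to 3471 CPM.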

How the results depend on the processing

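The counts of genes passing stayed the same with RLE scaling, scaling without mitochondrially encoded transcripts, no filter on low counts, and DESeq2. With only the libraries compared, they stayed at 0 for cold in each genotype and for genotype at each temperature. The average and the difference between the cold effects were not fitted that way. With the first principal component added to the fit, 2 genes passed with cold in KO rats (against 6.69% of all genes), 1 in WT rats (3.75%) and 4 in the average (12.6%); the genotype comparisons and the difference between the cold effects stayed at 0. Leaving out each of 31 libraries gave 0 to 4 genes in the average and 0 to 0 in each of the other 5 comparisons. With both sets of libraries that stood apart left out, a choice made after seeing the data like that of leaving out the high scores, 3 genes passed in the average (against 8.13%). No tested result reversed past the threshold. For the isoform ratios, neither pseudocounts of 1 and 0.1, nor medians, nor fewer libraries gave an adjusted p under 0.05. Without mitochondrially encoded transcripts in the total, the share of the 45 genes was 5.22% in KO cold, 5.11% in WT cold and 5.12% in KO RT rats. The pair Cox7a2 and Cox7a1 was not run, since both were not analysed here. No paired analysis was possible because every animal has a number of its own. Depth limits Cox4i2 most, at 2.08 CPM in WT RT rats, and the 95% interval of the difference between the genotypes' cold effects reached beyond 2-fold for 11 of 45 genes.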
